A study of Mus musculus with 8 samples.

Results

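The genes described here make glutathione, use it, or remove peroxide and superoxide: the glutathione transferases of the classes alpha, mu, omega, pi and theta (Gsta, Gstm, Gsto, Gstp and Gstt), the glutathione peroxidases (Gpx), the peroxiredoxins (Prdx), the thioredoxins (Txn) and the superoxide dismutases (Sod), each followed by a number, together with Gclc, Gclm, Cat, Nqo1 and Hmox1. They were taken by symbol from the table of all probes, which gave 41 of 16593 named genes, on 59 of 25697 probes (the choice rests on symbols and was made with earlier results of these data known). RNA of 8 samples was measured, each on a single Illumina bead array. The pluripotent samples were the 2 iNdiPSC clones, iNdiPSC-1 and iNdiPSC-4, which were induced from iNSCs with Oct4 and Klf4, NSC 2F iPSCs, induced from neural stem cells with the same 2 factors, MEF 4F iPSCs, induced from fibroblasts with Oct4, Sox2, Klf4 and Myc, and embryonic stem cells (ESCs). The somatic samples were iNSCs, which are neural stem cells made directly from fibroblasts with Brn4, Sox2, Klf4 and Myc, brain-derived neural stem cells (NSCs) and mouse embryonic fibroblasts (MEFs). The labels give the strain C3H for iNSCs and both clones and B6D2F1/J for the other 5 samples, and a Tet-On background for ESCs, NSCs and MEFs. They mark iNSCs as pluripotent, whereas the study treats them as somatic, and 8 of 8 pluripotency marker genes were detected in each of the 5 pluripotent lines against 2, 1 and 1 in iNSCs, NSCs and MEFs. By the methods, the 4 iPSC lines grew on feeder cells in 2i medium. Both clones came from the same iNSCs, so they are not independent derivations.

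Glutathione is a small peptide thiol whose first, rate-limiting step of synthesis is made by glutamate cysteine ligase, the enzyme formed by Gclc (catalytic) and Gclm (modifier). Glutathione peroxidases reduce peroxides with it, and glutathione transferases join it to reactive compounds so that these can leave the cell. Peroxiredoxins reduce peroxide too and are returned to their active form by thioredoxin, while superoxide dismutases make the peroxide that these enzymes and catalase remove. Many of the genes are activated by the transcription factor Nrf2 (Nfe2l2), which Keap1 holds in check and which binds a short antioxidant response element.

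The pi class held the gene with the sharpest division between the samples, so the bases before its start sites are shown first, from RefSeq (GRCm38.p6), each for the 250 bases ahead of the start. The genes Gstp1, Gstp2 and Gstp3 are neighbours on chromosome 19, read from the minus strand. Capitals mark TGAGTCA, the letters bound by AP-1 factors and the centre of many antioxidant response elements, searched on both strands. The windows lie at chr19:4037913-4038162 for Gstp1, chr19:4042222-4042471 for Gstp2 and chr19:4059448-4059697 for Gstp3, all on the minus strand.
Gstp1: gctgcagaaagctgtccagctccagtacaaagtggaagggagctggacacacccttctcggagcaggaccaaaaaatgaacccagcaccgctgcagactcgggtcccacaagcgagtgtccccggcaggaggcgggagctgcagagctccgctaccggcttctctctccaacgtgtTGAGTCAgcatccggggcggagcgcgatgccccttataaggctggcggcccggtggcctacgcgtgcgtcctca
Gstp2: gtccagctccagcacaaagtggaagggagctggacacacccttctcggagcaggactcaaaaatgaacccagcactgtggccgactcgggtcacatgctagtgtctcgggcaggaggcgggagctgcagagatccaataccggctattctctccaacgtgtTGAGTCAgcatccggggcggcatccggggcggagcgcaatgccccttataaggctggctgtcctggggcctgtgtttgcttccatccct
Gstp3: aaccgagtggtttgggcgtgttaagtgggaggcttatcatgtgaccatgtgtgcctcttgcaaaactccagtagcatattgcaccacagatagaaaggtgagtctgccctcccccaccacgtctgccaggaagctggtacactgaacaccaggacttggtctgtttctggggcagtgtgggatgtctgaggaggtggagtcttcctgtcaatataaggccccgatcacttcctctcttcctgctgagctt
The windows of Gstp1 and Gstp2 carried the same base at 209 of 235 aligned positions (88.9%), against 129 of 235 (54.9%) for Gstp1 and Gstp3. TGAGTCA began 74 bases before the start of Gstp1 and 89 bases before that of Gstp2, and was not among the letters of the Gstp3 window. It was present in 4.46% of 32851 mouse promoter windows of this length. The GC box GGGCGG, searched on both strands, was found once ahead of Gstp1 and 2 times ahead of Gstp2. It is common, being present in 32.7% of the 32851 windows and in those of 18 of 36 genes matched in this set. A match of letters is a description and not a binding site.

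The longer core TGACNNNGC of the antioxidant response element was searched in the same way, because Nrf2 is the factor best known for the other genes. It was found in 10.2% of all 32851 windows and in those of 5 of the 36 genes that could be matched. The 5 stretches are shown with the core in capitals and lie, in the order given, at chr3:122245413-122245441, chr1:21240454-21240482, chr3:107895802-107895830, chr4:116685456-116685484 and chr16:90220696-90220724, all on the plus strand.
Gclm: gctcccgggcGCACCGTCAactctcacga
Gsta3: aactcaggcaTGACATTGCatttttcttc
Gstm5: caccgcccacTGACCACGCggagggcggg
Prdx1: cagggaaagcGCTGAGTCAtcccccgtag
Sod1: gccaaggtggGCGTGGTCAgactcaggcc
The core runs on the opposite strand in Gclm, Prdx1 and Sod1. In Prdx1 it overlaps TGAGTCA.

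Detection was set at a p below 0.01 against the array's negative controls, and 11087 (ESCs) to 12128 (MEF 4F iPSCs) of all probes were detected per array. Levels are normalized log2 intensities, on which the lowest detected probe of an array lay between 4.97 and 5.27. Of the 59 probes, 53 were detected on at least 1 array, for 37 genes, and 30 were detected on all 8. The 6 never detected were both probes of Gpx5, a peroxidase of the epididymis, and those of Gpx6, Gstm3 and Gstt4 with the second probe of Gsta3. In bulk RNA, fewer cells of a type and less RNA per cell cannot be told apart. The probe sequences were not used here, so probes of near-identical genes (Gsta1 and Gsta2, Gstp1 and Gstp2, the Gstm cluster) may read more than 1 gene.

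**Figure D1:**
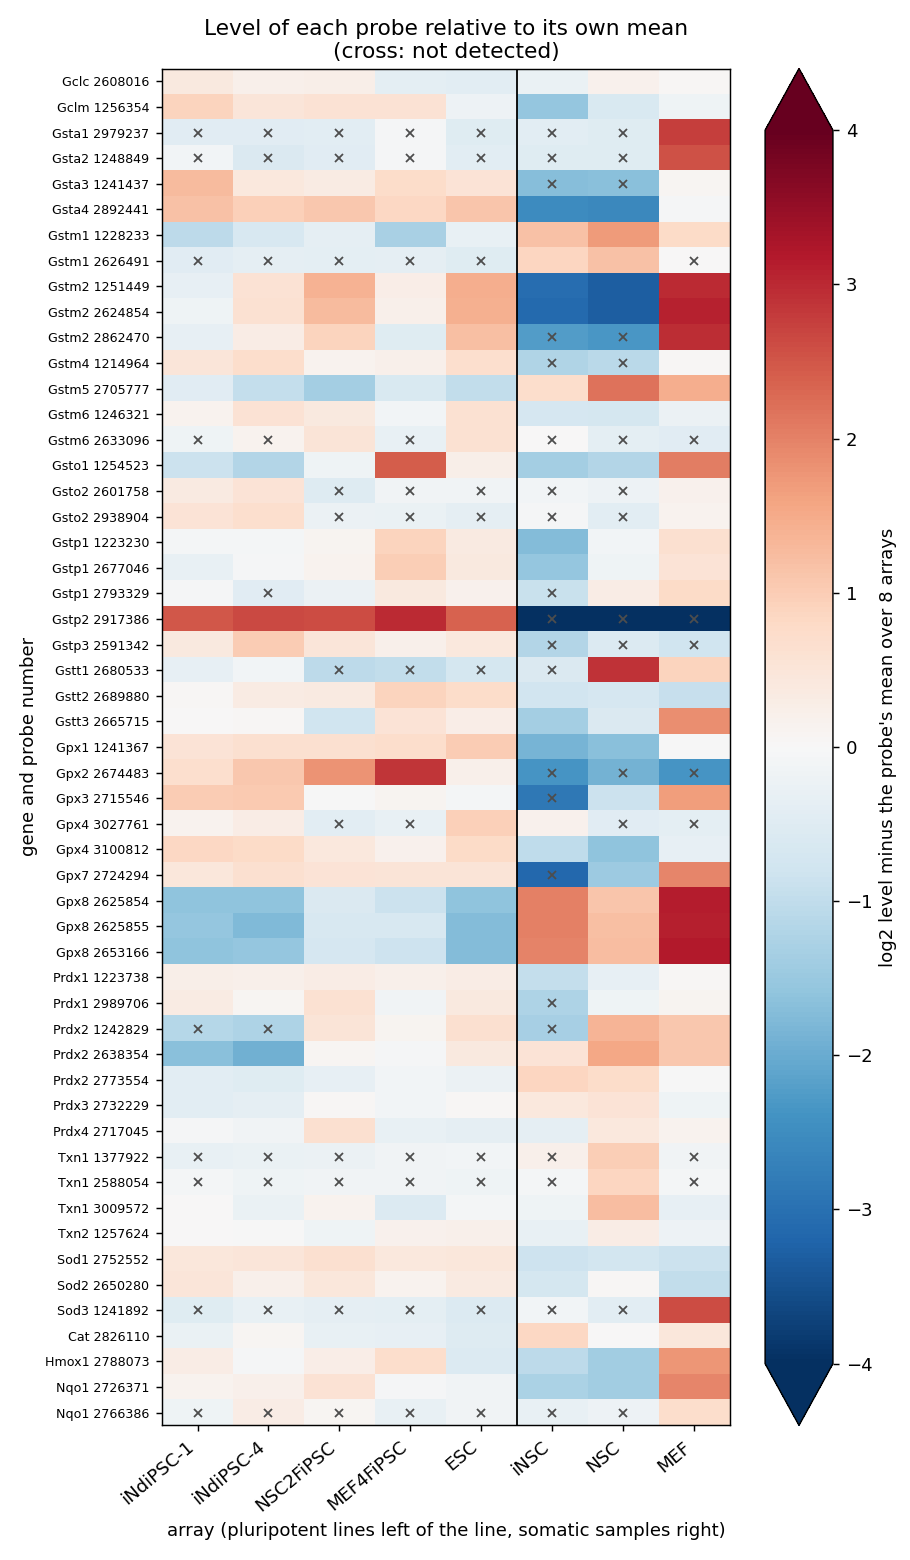
Level of each of the 53 probes detected on at least 1 array (rows: gene and probe number), as log2 level minus the mean of that probe over the 8 arrays (columns), with crosses where a probe was not detected. The pluripotent lines stand left of the line: Gstp2 is above its mean in all 5 of them, Gpx8 below, and Gstm2, Gpx3, Gpx7 and Nqo1 are highest in MEFs.

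The 3 control pluripotent lines (NSC 2F iPSCs, MEF 4F iPSCs, then ESCs, the order in which their values are given as controls) were compared with the 3 somatic samples (iNSCs, NSCs and MEFs), which asks which of these genes go with the pluripotent state. Calls required a 2-fold difference and an adjusted p (Benjamini-Hochberg over all 13220 probes tested by limma) below 0.05. Of 45 member probes tested (33 genes), 5 were lower and 8 higher in the pluripotent lines, 28.9% in all, against 22.7% of all probes tested (12.7% higher and 10% lower). The groups did not overlap for 23 of the 45 (51.1%), against 48% of all probes, and the median difference was 0.68 in log2, against 0.03 over all probes. The set as a whole was thus called at a share near the background, so the results are given gene by gene. Both shares changed on leaving out single arrays. The members called numbered 25 of 44 without MEFs (35.1% of all probes), 12 of 43 without NSCs (25.8%), 12 of 43 without iNSCs (18.4%), 5 of 44 without NSC 2F iPSCs (7.92%), 8 of 45 without MEF 4F iPSCs (11.9%) and 5 of 43 without ESCs (9.68%). At a 4-fold threshold 7 of 45 were called (8.68% of all probes).

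**Figure D2:**
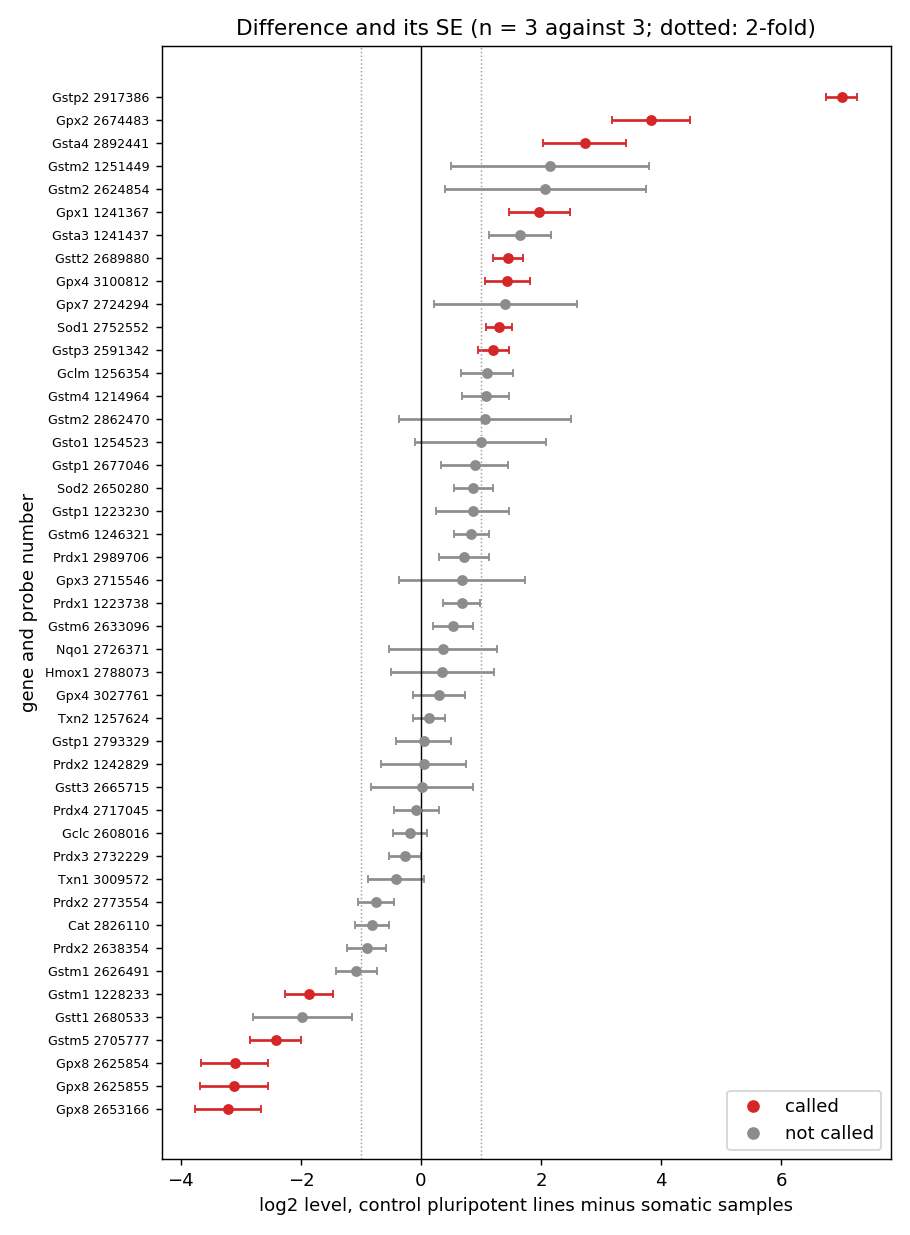
Difference in log2 level between the 3 control pluripotent lines and the 3 somatic samples for the 45 probes tested (points, with bars for the SE of the fit); red points are called, grey are not, and dotted lines mark 2-fold. Gstp2 stands alone at 7.01 on the right, and the 3 probes of Gpx8 lie lowest, from -3.21 to -3.10.

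Among the transferases, Gstp2 was on in every pluripotent line and below detection in every somatic sample. Its level was 11.40 in iNdiPSC-1, 11.55 in iNdiPSC-4, 11.52 in NSC 2F iPSCs, 11.89 in MEF 4F iPSCs and 11.27 in ESCs, against 4.45 in iNSCs, 4.51 in NSCs and 4.70 in MEFs. Against the detection floor, the control pluripotent lines were at least 84.8-fold higher than the somatic samples (log2 difference 7.01, SE 0.26, adjusted p = 6.8e-05 from limma). It was called under every alternative run, with log2 differences of 6.84 to 7.15 on leaving out single arrays. Gstp1, the main pi-class enzyme of most tissues, was on everywhere by its probes ILMN_1223230 and ILMN_2677046. Its weaker probe, ILMN_2793329, was not detected in iNSCs or iNdiPSC-4. Its probe ILMN_2677046 read 10.65 and 10.90 in the clones, 11.07, 11.92 and 11.31 in the 3 controls, against 9.38, 10.77 and 11.47 in iNSCs, NSCs and MEFs. The groups overlapped, and the difference of 0.90 (SE 0.56) did not pass (adjusted p = 0.267). The Gstp2 probe was below detection in NSCs and MEFs, where all 3 Gstp1 probes were detected. Gstp3 was low but followed Gstp2: 5.82 and 6.44 in the clones and 5.92, 5.65 and 5.85 in the controls, while it was not detected in iNSCs, NSCs or MEFs. It was at least 1.57-fold higher in control pluripotent lines (log2 1.20, SE 0.26, adjusted p = 0.0198), a call lost without NSC 2F iPSCs (0.0899), MEF 4F iPSCs (0.0588) or ESCs (0.075), and with no background correction.

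**Figure D3:**
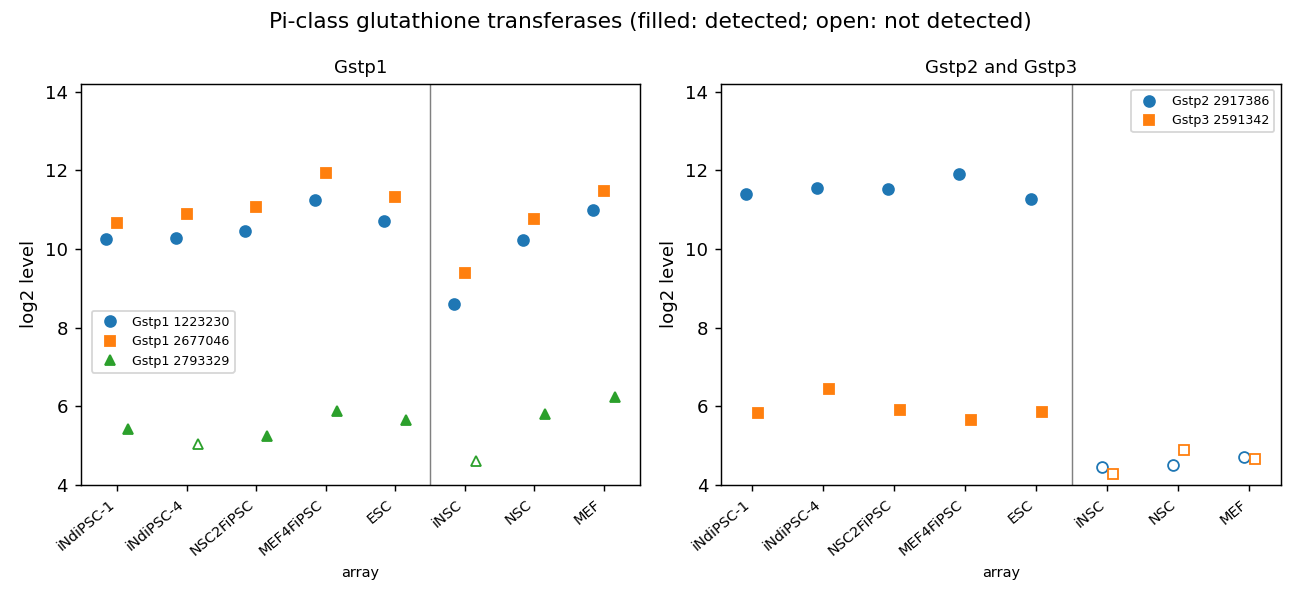
Log2 level of the 3 Gstp1 probes (left panel) and of the Gstp2 and Gstp3 probes (right panel) on each array, with open symbols where a probe was not detected and a line between the pluripotent lines (left) and the somatic samples (right). Gstp2 lies between 11.27 and 11.89 in the 5 pluripotent lines and at 4.70 or below in the 3 somatic samples.

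The alpha-class enzyme Gsta4, which conjugates the lipid peroxidation product hydroxynonenal, was also higher in the pluripotent lines. It read 10.79 and 10.60 in the clones and 10.70, 10.47 and 10.75 in the controls, against 7.10 in iNSCs, 7.05 in NSCs and 9.58 in MEFs (log2 2.73, SE 0.69, adjusted p = 0.0328). The pluripotent lines lay within 0.32 of each other, while the somatic samples spread over 2.53, MEFs being the highest. Its call was lost on leaving out any array but MEFs (adjusted p 0.0703 to 0.11). The theta-class enzyme Gstt2 read 6.55, 7.10 and 6.93 in the controls, against 5.43, 5.52 and 5.28 in iNSCs, NSCs and MEFs (log2 1.45, SE 0.25, adjusted p = 0.0107). That call held without each array in turn, but the difference was under 2-fold with no background correction (0.63).

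Both transferases that were lower in the pluripotent lines belong to the mu class. Gstm5, the mu-class gene of brain and testis, read 8.76 and 8.25 in the clones and 7.85, 8.61 and 8.24 in the controls, against 9.92 in iNSCs, 11.38 in NSCs and 10.65 in MEFs (log2 -2.42, SE 0.43, adjusted p = 0.0113). Gstm1, by its probe ILMN_1228233, read 8.37, 7.42 and 8.43 in the controls, against 9.91, 10.42 and 9.47 in iNSCs, NSCs and MEFs (log2 -1.86, SE 0.39, adjusted p = 0.0191). Its second probe, ILMN_2626491, was detected only in iNSCs (5.81) and NSCs (6.13), and its difference of -1.07 was not called (adjusted p = 0.0639). The calls were lost without NSC 2F iPSCs (0.0567 for Gstm5 and 0.0621 for Gstm1) or ESCs (0.0516 and 0.0538), and that of Gstm1 also without MEF 4F iPSCs (0.0581). Gstm2 is described with the conversions.

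Among the peroxidases, different members moved in opposite directions. Gpx2, a cytosolic enzyme best known from gut epithelium, was detected only in pluripotent lines, at 7.46 in iNdiPSC-1, 7.85 in iNdiPSC-4, 8.59 in NSC 2F iPSCs, 9.64 in MEF 4F iPSCs and 6.99 in ESCs. The control pluripotent lines were at least 9.52-fold higher than the somatic samples (log2 3.83, SE 0.65, adjusted p = 0.0103, or 0.0516 without NSC 2F iPSCs). Gpx2 also varied more among pluripotent lines than Gsta4 or Gstp2 did, over 2.65 in log2. Gpx1, the abundant cytosolic enzyme, read 13.39 and 13.48 in the clones and 13.49, 13.54 and 13.85 in the controls, against 10.99 in iNSCs, 11.15 in NSCs and 12.82 in MEFs (log2 1.97, SE 0.51, adjusted p = 0.0348). Gpx4, which reduces lipid hydroperoxides and guards against ferroptosis, read 11.30, 11.05 and 11.63 in the controls by probe ILMN_3100812, against 9.85, 9.27 and 10.54 in iNSCs, NSCs and MEFs (log2 1.44, SE 0.38, adjusted p = 0.0366). For both genes all 5 pluripotent lines lay above all 3 somatic samples, but the call was lost on leaving out any array but MEFs (adjusted p up to 0.12 for Gpx1 and 0.126 for Gpx4). The second Gpx4 probe, ILMN_3027761, was near the floor throughout, with its highest level, 6.11, in ESCs.

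Gpx8, a membrane protein of the endoplasmic reticulum, ran the other way on all 3 of its probes. By ILMN_2625854 it read 7.61 in both clones and 8.62, 8.34 and 7.59 in the 3 controls, against 11.21 in iNSCs, 10.31 in NSCs and 12.33 in MEFs. The log2 differences of the 3 probes were -3.21, -3.11 and -3.10 (SE 0.55 to 0.56), which is 8.59-fold to 9.25-fold lower in the control pluripotent lines, with adjusted p of 0.0106 to 0.0121. Without ESCs, 2 of the 3 probes missed the threshold (0.052 and 0.055). Among the pluripotent lines, fibroblast markers too were highest in NSC 2F iPSCs and MEF 4F iPSCs. Of 9 marker genes, 7 were detected in iNdiPSC-1, 6 in iNdiPSC-4, 7 each in NSC 2F iPSCs and MEF 4F iPSCs and 2 in ESCs, against 1 in iNSCs, 2 in NSCs and 9 in MEFs. Their summed log2 level over 13 probes was 73.5, 68.5, 84.5, 79.8 and 63.3 in the same 5 lines, against 59.7, 59.8 and 138.5 in iNSCs, NSCs and MEFs. In ESCs the markers Col1a1, Col1a2, Col3a1, Col6a1, Lum, Postn and Twist1 were not detected. The part of feeder cells in the values of the iPSC lines was not tested.

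The enzymes that handle superoxide and the bulk of peroxide differed less. Sod1, the cytosolic dismutase, read 12.82 and 12.86 in the clones and 13.02, 12.79 and 12.83 in the controls, against 11.56 in iNSCs, 11.65 in NSCs and 11.53 in MEFs. The difference of 1.30 (SE 0.22) was called (adjusted p = 0.00987, or 0.0572 without NSC 2F iPSCs). Sod2, the mitochondrial dismutase, lay higher in all 5 pluripotent lines (12.15 to 12.49) than in the somatic samples (11.01 to 12.04), but its difference of 0.87 was under 2-fold and did not pass (adjusted p = 0.0949). Cat, the catalase gene, went the other way by -0.81 (adjusted p = 0.0789), at 8.56 to 9.14 in the pluripotent lines and 9.09 to 9.90 in the somatic samples, ranges that overlapped. Without NSCs, both passed (Sod2 1.17, adjusted p = 0.0282, and Cat -1.02, adjusted p = 0.0397). Prdx1, Prdx3, Prdx4, Txn1 and Txn2 had log2 differences of -0.41 to 0.71, none of them called. Txn1, cytosolic thioredoxin, was highest in NSCs, at 12.20 by probe ILMN_3009572, with 10.42 to 11.11 elsewhere. Its other 2 probes were detected in NSCs alone, at 5.34 and 5.78.

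Genes that work beside this set were taken as a list of glutathione supply, NADPH supply, thioredoxin and glutaredoxin partners, further transferases, haem and quinone enzymes and the Nrf2 pathway. A mixed group held Ccs, Sesn1, Sesn2, Sesn3, Sqstm1, Park7, Ephx1 and Selenop. In the fit of state, where 22.7% of all probes were called, 1 of 18 probes of thioredoxin and glutaredoxin partners was called. So were 4 of 6 of NADPH supply, 2 of 10 of transcription factors and their brakes and 2 of 8 of further transferases. In the mixed group 3 of 11 were called, all lower. None of 9 of glutathione supply or 8 of haem and quinone enzymes was called by limma. An unadjusted p under 0.05 was reached there by 1 probe of each, against 5368 of all 13220 probes. Mgst1, a microsomal transferase, was at least 14.8-fold lower in the control pluripotent lines on both its probes (log2 -4.09 and -3.97, adjusted p = 0.00228 and 0.00249). Me1, which makes NADPH, was lower by -1.80 and -2.93, Idh1, another source of NADPH, by -1.47, and Taldo1, of the pentose phosphate pathway, was higher by 1.05. Keap1 was lower on all 4 probes, by -0.57 to -1.26, and 2 of them were called. Nfe2l2 itself read 7.58, 7.07 and 7.64 in the controls, against 7.45, 7.41 and 7.61 in iNSCs, NSCs and MEFs.

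Several genes stood high in MEFs and low in neural cells. NSCs were 2-fold lower than MEFs in 20 of 48 member probes and higher in 5 (52.1% in all), against 37.6% of all probes (18.5% lower and 19.1% higher). Each conversion is 1 array against 1 array and has no replicate check. Gstm2, a cytosolic mu-class transferase, read 11.73 in MEFs by its probe ILMN_2624854, 5.36 in NSCs and 5.55 in iNSCs, and then 8.46 and 9.25 in the clones, 9.91 in NSC 2F iPSCs, 8.86 in MEF 4F iPSCs and 10.08 in ESCs. It was 7.3-fold lower in MEF 4F iPSCs than in MEFs, yet 23.5-fold higher in NSC 2F iPSCs than in NSCs. All 3 of its probes were high in MEFs and low in both neural samples, which were below detection on ILMN_2862470. Among the pluripotent lines it was highest in ESCs. The part of feeder cells in the Gstm2 levels was not tested.

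**Figure D4:**
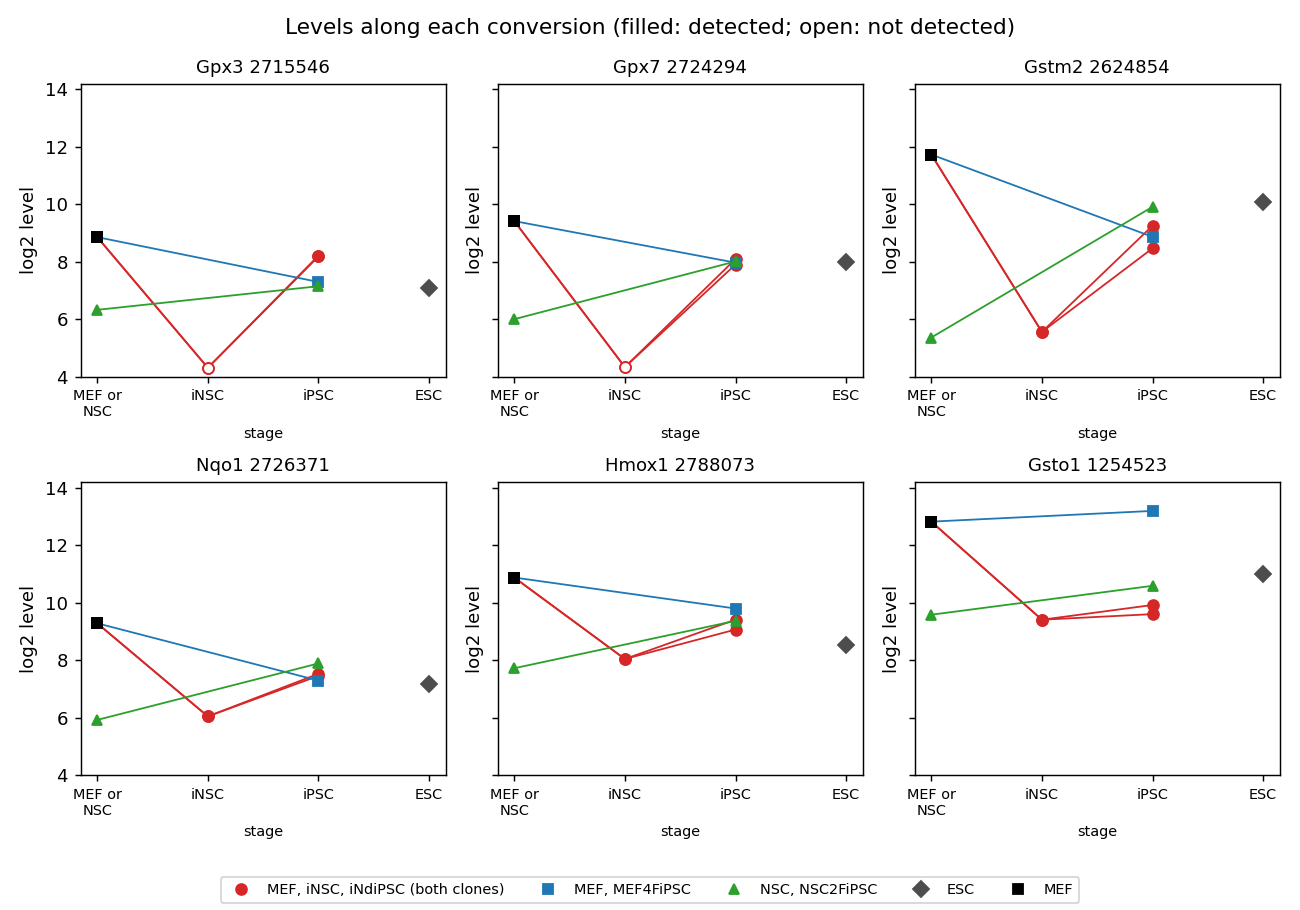
Log2 level of 6 genes, 1 probe each, along the conversions: MEFs to iNSCs to both iNdiPSC clones (red), MEFs to MEF 4F iPSCs (blue) and NSCs to NSC 2F iPSCs (green), with ESCs at the right and open symbols where a probe was not detected. Gpx3 and Gpx7 are high in MEFs, not detected in iNSCs and detected in both clones, and Gsto1 is near its MEF level in MEF 4F iPSCs only. The strain label of MEFs differs from that of iNSCs and the clones.

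The extracellular peroxidase Gpx3 and the endoplasmic reticulum enzyme Gpx7 traced the same path to and from iNSCs. Gpx3 read 8.85 in MEFs, was not detected in iNSCs, and read 8.18 and 8.21 in the clones, 6.32 in NSCs and 7.14, 7.29 and 7.08 in the 3 controls. Gpx7 read 9.41 in MEFs, was not detected in iNSCs, and read 7.90 and 8.09 in the clones, 6.0 in NSCs and 8.01, 7.96 and 7.98 in the controls. In iNSCs Gpx3 lay at least 12.8-fold under its MEF level, and in iNdiPSC-4 it was at least 8.17-fold higher than in iNSCs. For Gpx7 the bounds were 18.8-fold and 7.53-fold. Nqo1, a quinone reductase and standard Nrf2 target, read 7.45 and 7.52 in the clones, 7.88, 7.29 and 7.17 in the controls, 6.04 in iNSCs, 5.92 in NSCs and 9.28 in MEFs by probe ILMN_2726371. Hmox1, which degrades haem, had the same shape, at 9.41 and 9.06 in the clones, 9.37, 9.80 and 8.54 in the controls, 8.04 in iNSCs, 7.72 in NSCs and 10.88 in MEFs. In all 4 genes MEFs were the highest sample and the 2 neural samples the lowest.

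Because MEFs stood apart, the comparison of state gave another picture without them. Then 25 of 44 member probes were called, against 35.1% of all probes (22.7% with MEFs). All 13 of the original calls were among them, and 12 more. The added probes that were higher in the control pluripotent lines were the 3 of Gstm2 (log2 2.81 to 4.21), Gpx7 (2.82), Gsta3 (2.25), Gpx3 (1.86), Nqo1 (1.47), Gstm4 (1.47), Gclm (1.40) and Hmox1 (1.36). Gstm1 ILMN_2626491 (-1.41) and Prdx2 ILMN_2773554 (-1.02) were lower. That comparison sets the control lines against 2 neural samples only, so it describes pluripotent against neural cells.

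In iNSCs these genes were most often at their lowest. Of the 53 detected probes, iNSCs gave the lowest of the 8 levels in 18 (34%), against 16.1% of all detected probes, and the highest in 2 (3.77%), against 18.8%. MEFs gave the highest in 16 (30.2%, against 21.2%). Levels below detection enter these counts. Set against the MEFs measured here, iNSCs were 2-fold lower in 27 of 47 member probes (20 of 34 genes) and 2-fold higher in none, where 18.2% of all probes were lower and 18.7% higher. Against NSCs they were lower in 10 of 40 and higher in none, with 9.72% of all probes lower and 9.26% higher. The strain labels differ between iNSCs and both of these samples, so these MEFs are not shown to be the cells the iNSCs came from, and strain and cell origin cannot be told apart in these counts.

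The probes 2-fold lower in iNSCs than in NSCs came from several classes. By ILMN_2677046, Gstp1 read 9.38 in iNSCs against 10.77 in NSCs, and the theta-class gene Gstt1 was not detected in iNSCs, where NSCs gave 8.49 and MEFs 6.48. Prdx1, a cytosolic peroxiredoxin, read 12.63 in iNSCs by probe ILMN_1223738, against 13.28 in NSCs and 13.65 in MEFs. Its second probe, ILMN_2989706, was not detected in iNSCs (4.87) and read 5.91 in NSCs and 6.21 in MEFs. That probe counts as 2-fold lower in iNSCs than in either. Gclm read 8.30 in iNSCs, against 9.24 in NSCs and 9.68 in MEFs. Gclm and Prdx1 by ILMN_1223738 were 2-fold lower in iNSCs than in MEFs, but by less than 2-fold against NSCs. The catalytic partner Gclc, at 5.63, 6.08 and 5.94 in iNSCs, NSCs and MEFs, differed by less than 2-fold from either. Of the neighbouring genes, Srxn1, which repairs overoxidized peroxiredoxins, read 5.52 in iNSCs, 6.54 in NSCs and 9.42 in MEFs by probe ILMN_2677772. Slc7a11, the cystine importer that feeds glutathione synthesis, ran the other way, at 7.67 in iNSCs, 5.99 in NSCs and 5.45 in MEFs, as did its partner chain Slc3a2 (9.04, 6.77 and 6.79).

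In the iNdiPSCs more member probes lay above iNSCs than below them. Relative to iNSCs, 23 of 45 member probes were 2-fold higher and 9 lower in iNdiPSC-1, and 24 of 44 higher and 8 lower in iNdiPSC-4, where 23.4% and 23.3% of all probes were higher and 22.5% and 22.1% lower. Gclm read 10.76 and 10.33 in the clones, against 8.30 in iNSCs, and Prdx1 read 13.84 and 13.81, against 12.63. NSC 2F iPSCs had 19 of 46 higher and 12 lower than NSCs (20.2% and 20.4% of all probes), whereas MEF 4F iPSCs had 6 of 48 higher and 19 lower than MEFs (23.2% and 22.4%). The counts thus ran towards higher levels where neural cells were the starting type and towards lower levels where MEFs were. Slc7a11 was not detected in either clone.

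The clones were compared with the control pluripotent lines, which asks whether iPSCs made through a somatic stem cell intermediate differ from other pluripotent cells. Of 46 member probes tested, none was higher and 2 were lower, both of Prdx2, against 1.29% of 12241 probes (0.629% higher and 0.662% lower). The split of Prdx2 was known when the genes were chosen, so that count is a description. The clones do not share a strain label with any of the 3 controls, so origin and strain cannot be told apart here. An unadjusted p under 0.05 was reached by 7 of the 46, against 2267 of all 12241 probes. Gpx3 came next, at 8.18 and 8.21 in the clones against 7.14, 7.29 and 7.08 in the controls, a difference of 1.02 (SE 0.17, adjusted p = 0.0505). It passed under 75th percentile scaling (0.0459) and with all probes kept (0.0415), and under no other alternative run. Gsto2, an omega-class gene, was detected in both clones on both probes (5.29 to 5.77) and in none of the controls, with differences of 0.72 and 0.88 (adjusted p = 0.145 and 0.0691). Both probes were also detected in MEFs, at 5.11 and 5.26, and all these levels lie close to the detection floor. The more strongly differing probe, ILMN_2938904, was called with the authors' processed values (1.61, adjusted p = 0.0294). Between the clones, 0 of 44 member probes differed 2-fold (0.566% of all probes did, 0.164% higher and 0.402% lower in iNdiPSC-4).

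The iPSC lines were also set against ESCs alone, 1 array against 1. MEF 4F iPSCs differed 2-fold in 9 of 43 member probes (20.9%, 95% exact binomial interval 10 to 36, against 10% of all probes) and NSC 2F iPSCs in 7 of 43 (16.3%, 6.81 to 30.7, against 6.76%). The clones differed in 8 and 5 of 46 (17.4% and 10.9%, against 13.8% and 11.3%). In MEF 4F iPSCs, 4 were higher and 5 lower (6.57% and 3.45% of all probes), in NSC 2F iPSCs 5 and 2 (4.31% and 2.45%), in iNdiPSC-1 2 and 6 (7.71% and 6.07%) and in iNdiPSC-4 2 and 3 (6.12% and 5.14%). The intervals cover counting alone, and the probes of 1 gene are not independent. Gsto1, the main omega-class transferase, stood high in 1 of the pluripotent lines: it read 13.20 in MEF 4F iPSCs, 10.59 in NSC 2F iPSCs, 9.92 and 9.60 in the clones and 11.00 in ESCs, with 9.41 in iNSCs, 9.58 in NSCs and 12.82 in MEFs. MEF 4F iPSCs were thus 4.58-fold above ESCs and 1.3-fold above MEFs. Mgst3, a microsomal transferase outside the set, also read at the MEF level in MEF 4F iPSCs (9.92 against 9.77 in MEFs), with 7.49 to 7.96 in the other pluripotent lines. Gpx2 was 6.27-fold higher in MEF 4F iPSCs than in ESCs, although MEFs had none detected.

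Prdx2, an abundant cytosolic peroxiredoxin, has 3 probes that gave 3 patterns, and 1 of them splits the strain labels. That split was known when the gene was chosen, so the levels are a description and no p is given for them. Probe ILMN_1242829 was not detected in iNSCs or either clone, the samples labelled C3H, and read 6.75 in MEFs, 7.02 in NSCs, 6.18 in NSC 2F iPSCs, 5.78 in MEF 4F iPSCs and 6.30 in ESCs, all labelled B6D2F1/J. Probe ILMN_2638354 read 7.54 in iNSCs and 5.33 and 5.08 in the clones, against 8.08 in MEFs, 8.54 in NSCs and 7.09, 6.96 and 7.39 in the 3 controls. Within the somatic and the pluripotent samples taken apart, each C3H sample lay below each B6D2F1/J sample on this probe, but iNSCs lay above the 3 controls, so the strain labels overlapped. The third probe, ILMN_2773554, did not divide the strains: it read 13.07 in iNSCs and 11.78 and 11.72 in the clones, against 12.20, 12.93, 11.89, 12.08 and 11.99 in MEFs, NSCs and the 3 controls.

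**Figure D5:**
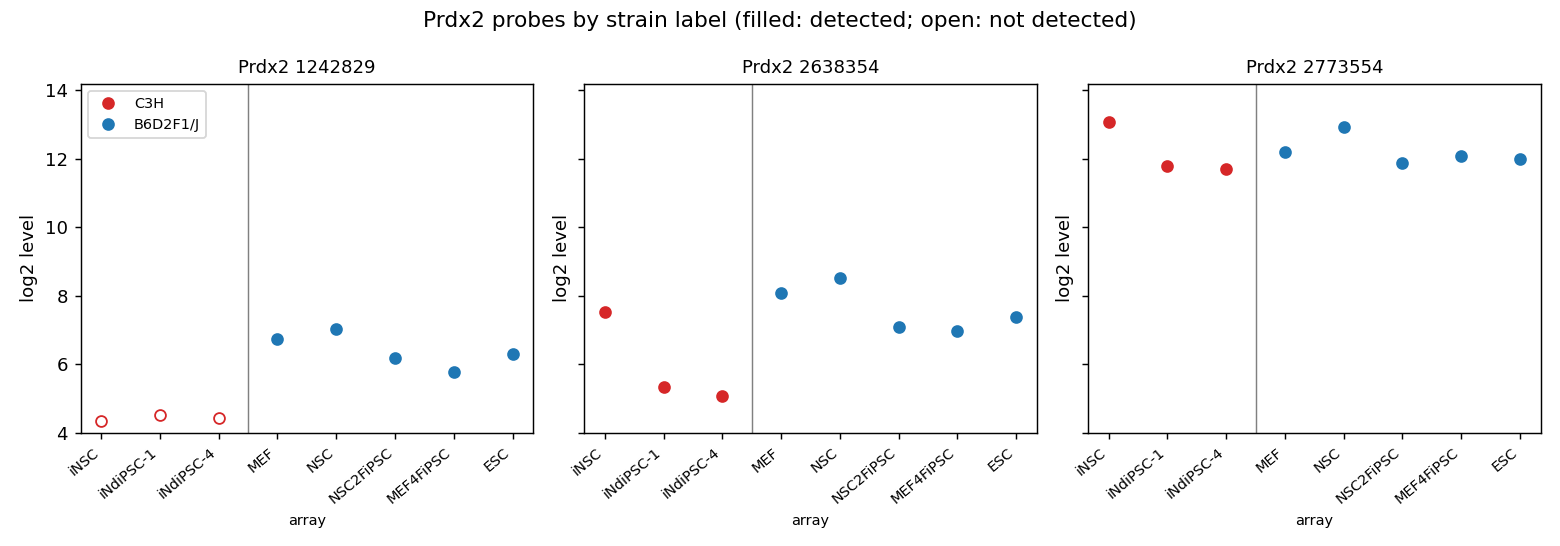
Log2 level of the 3 Prdx2 probes, 1 per panel, on each array, with samples labelled C3H (red) left of the line, samples labelled B6D2F1/J (blue) right of it, and open symbols where a probe was not detected. On ILMN_1242829 the C3H samples lie at 4.35 to 4.52 and the others at 5.78 to 7.02, while on ILMN_2773554 the ranges overlap.

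Between clones and control pluripotent lines, the Prdx2 probe ILMN_2638354 was 3.84-fold lower (log2 -1.94, SE 0.21) and ILMN_1242829 at least 2.02-fold lower (-1.61, SE 0.21), while ILMN_2773554 differed by -0.24. The first 2 were called, but the Prdx2 split was known when the genes were chosen, so these calls are a description. Both calls were lost without NSC 2F iPSCs. They were also lost without either clone, where the remaining clone is assumed to vary like the controls. With no background correction both differences were under 2-fold (-0.85 and -0.51), and with all probes kept ILMN_1242829 missed the threshold. Over all 8 arrays, 42 of 15194 detected probes (0.276%) had the 3 C3H samples all at least 2-fold above or below the other 5, and ILMN_1242829 was 1 of them, with a gap of 1.26. The 3 C3H samples are iNSCs and the 2 clones induced from them, so strain and line of descent cannot be told apart. With a term for the pluripotent state, 46 of 13647 probes (0.337%) were called between the strain labels, 15.2% of them higher in C3H (25.8% with the authors' processed values), with 0.0513% of all probes higher and 0.286% lower. ILMN_1242829 was called in that fit, which adds nothing to a split already known, and was not called on leaving out iNSCs, either clone or any of the 3 controls. The 46 calls over all probes became 12 without either clone, 17 to 19 without 1 of the 3 controls, and 70 without MEFs.

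A few genes belonged to 1 sample alone. Gsta1 (7.51), Gsta2 (7.36) and Sod3 (7.50), the extracellular dismutase, were detected in MEFs and nowhere else, and the values of the alpha-class pair may share RNA. In iNSCs they lay at least 5.02-fold, 4.55-fold and 4.99-fold under their MEF levels. The alpha-class gene Gsta3 had a wider reach: by probe ILMN_1241437 it read 7.46 and 6.62 in the clones, 6.55, 6.95 and 6.77 in the controls and 6.29 in MEFs, and was not detected in iNSCs or NSCs. The second probe of Nqo1, ILMN_2766386, was detected in MEFs alone (5.44), where the other probe was highest too. Gstt1 was clearest in NSCs, as given above, and was just above the floor in the clones (5.26 and 5.49) but not detected in the 3 controls.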

How the data were processed

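Total RNA of 8 samples was hybridized to Illumina arrays, 1 array each. The authors deposited the mean bead intensity per probe, exported with BeadStudio 3.2 before normalization, with a detection p-value against negative control beads, and a matrix of log2 values that the submitters' notes tie to RMA and lumi. From the intensities, levels were computed with neqc (background from the detection p-values, offset 16, quantile normalization) in limma 3.58.1 (R 4.3.3). Probes were named through their gene identifiers: 23978 have a symbol and 1719 have none, and Gsr, Prdx5, Prdx6 and Gstm7 have no named probe here.

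Probes detected (p below 0.01) on at least 2 arrays of a comparison were fitted with lmFit and eBayes, and called at an adjusted p below 0.05 and 2-fold. Where arrays were below detection, folds were computed with them at the array's lowest detected level and given as lower bounds. Members of 1 group are different lines or, among the somatic samples, different cell types, and both clones came from the same iNSCs. The p-values thus measure the spread within such groups, not between independent lines of a state. Array number also limits precision. The members and lists were chosen with earlier results of these data known. Per-array levels are given for genes with called probes or with any of the 15 widest-ranging probes, for some disagreeing probes and for Prdx2. For Gpx8 and Gstm2 only 1 probe is printed array by array. For Gstt2, Gstm1 and Gpx4 the clones are left out. Other members were added as examples. Of the list genes, Fbn1, Bach2, Ggt1, Abcc4, G6pdx and Pgd are named on no probe here. Scripts were tested on simulated data. Promoters came from RefSeq, with 36 of 41 genes matched.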

Additional observations from a re-analysis of the deposited data

Results flagged for a closer look

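In 6 genes (8 of 53 detected member probes, 15.1%, against 3.86% of 15194 detected probes), 1 comparison of iPSCs with their starting cell type was at least 2-fold lower and another at least 2-fold higher. The difference between comparisons was not tested, since the iPSCs of each are set against a single array. Values are log2 differences of MEF 4F iPSCs from MEFs, NSC 2F iPSCs from NSCs, and the mean of both clones from iNSCs, in that order. The 3 Gstm2 probes gave -2.73, 4.68 and 3.17 (ILMN_1251449), -2.87, 4.55 and 3.30 (ILMN_2624854) and -3.42, at least 2.98 and at least 2.07 (ILMN_2862470, not detected in NSCs or iNSCs). Gpx7 gave -1.45, 2.01 and at least 2.82, and Gpx3 gave -1.56, 0.82 and at least 3.02, neither detected in iNSCs. Nqo1 gave -2.0, 1.97 and 1.45, Hmox1 gave -1.08, 1.65 and 1.20, and Gstt3, a theta-class transferase, gave -1.34, -0.22 and 1.39. Fibroblast markers were highest in MEFs (summed log2 level 138.5, against 59.8 in NSCs and 59.7 in iNSCs); their part in these values was not tested. Of 46 member probes detected on at least 1 of the 5 pluripotent arrays, 0 had an array standing apart by Dixon's criterion (0.71), which chance meets in about 1 of 20.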

How the results depend on the processing

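For control pluripotent lines against somatic samples, 10 to 14 member probes were called under 8 other settings. Over all probes the share called there ran from 8.79% (all probes kept) to 24.3% (authors' processed values). With both clones added 18 were called (30.7% of all probes), all 13 main calls among the 18. A 4-fold threshold left 7 (8.68% of all probes), and leaving out 1 array 5 to 25 (7.92% to 35.1% of all probes). For clones against control pluripotent lines, 0 were called with no background correction, with 1 probe per gene (which keeps only the brightest Prdx2 probe) and at 4-fold, and 0 to 2 without 1 array. Between strain labels, 0 were called with no background correction, all probes, 1 probe per gene or 4-fold, and 0 to 2 without 1 array (0.0891% to 0.526% of all probes). Without 1 array, Gpx3 gave -0.41 (without iNSCs, not called) to 1.86 (without MEFs, called) in the fit of state. Prdx2 ILMN_2773554 gave -0.24 (without iNSCs) to 0.13 (without iNdiPSC-4) between strain labels, with -0.13 without MEFs, none called. Of 387 single-probe values under an alternative, 318 kept direction and side of the threshold, 58 lost and 8 gained a call, and 3 turned. Causes were not tested. At 4-fold, the shares of member probes that differed were 34% for iNSCs against MEFs (14.4% over all probes, as in the later parentheses), 7.5% for iNSCs against NSCs (3.66%), 31.2% for NSCs against MEFs (15.2%), 33.3% and 36.4% for iNdiPSC-1 and iNdiPSC-4 against iNSCs (17.7% and 17.9%), 27.1% for MEF 4F iPSCs against MEFs (16%), 28.3% for NSC 2F iPSCs against NSCs (15%), and, against ESCs, 4.65% for MEF 4F iPSCs (1.94%), 0% for NSC 2F iPSCs (0.804%) and 2.17% for each clone (1.71% and 1.4%). With no background correction they were 53.3% and 50% for the clones against iNSCs (23.7% each), 47.8% for NSC 2F iPSCs against NSCs (20%) and 2.33% for NSC 2F iPSCs against ESCs (1.44%), and with all probes 54.2% for each clone against iNSCs (23.9% and 23.7%). Over all probes, the calls between clones and controls numbered 158, and 60 with no background correction (48.7% and 35% of them higher), 99 with all probes and 55 at 4-fold. No paired analysis was run, since the replicate numbers give no pairing. The fits did not use the pairing of iPSC lines with their starting cell type, which is described only by single arrays. Slide or scan was not run as a block because the file names none.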
